A study of Mus musculus with 6 samples.

Results

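Voltage-gated and glutamate-gated ion channels were compared between a mouse melanocyte line with 1 disrupted copy of Sox10 and a line with both copies. The genes were matched by symbol, under a rule set with earlier results of these data known. The rule covered voltage-gated potassium channels with their inward-rectifier, 2-pore and calcium- or sodium-activated relatives (Kcn) and voltage-gated calcium channels (Cacna, Cacnb, Cacng). It also covered voltage-gated sodium channels (Scn) and ionotropic glutamate receptors (Gria, Grid, Grik, Grin). Of 22180 genes measured by a probe set with a single symbol, 142 matched. They were 87 potassium, 25 calcium and 11 sodium channel genes, 16 glutamate receptor genes, and 3 that encode no channel subunit, namely the noncoding RNAs Kcnq1ot1 and Kcnd3os and the receptor-binding protein gene Grid2ip. The genes Kcnj13 and Kcnk3 and the antisense RNA Kcnmb4os1 shared their only probe sets with other symbols and were not analysed here.

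Both lines are immortal pigment cells on a C57BL/6J background. The Sox10 LacZ/+ line came from Ink4a-Arf null mice at 3 days of age and carries the LacZ allele of Sox10 on 1 chromosome. Its wild-type counterpart, melan-Ink4a-Arf-1 (called melan-a in the labels), carries both Sox10 alleles and is homozygous for the Cdkn2a tm1RDp allele, so Cdkn2a was disrupted in every sample. Each line was grown in 10% serum with 200 nM of the phorbol ester 12-O-tetradecanoylphorbol 13-acetate, a protein kinase C activator, and 200 pM of cholera toxin, which raises cAMP. Each was hybridised to 3 one-colour Affymetrix arrays of biotin-labelled RNA. The labels do not say whether these are separate cultures or whether either line is a single clone. With 1 line per genotype, the effect of Sox10 cannot be told apart from any other difference between the lines, and p-values measure the spread between these arrays, which may be technical.

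Voltage-gated channels open when the membrane potential changes and let potassium, calcium or sodium through a pore made by the main (alpha) subunit, while accessory subunits set how many channels reach the membrane and how fast they open and close. High-voltage-activated calcium channels are built from a Cacna1 pore, a Cacnb subunit inside the cell and a Cacna2d subunit on its surface. Glutamate-gated receptors are tetramers of the AMPA, kainate or NMDA class that pass cations when glutamate binds, and they are best known from synapses. Pigment cells share their neural crest origin with peripheral neurons and glia.

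Calcium channel genes and a pair of glutamate receptor genes gave the largest differences that passed, with each gene measured by its brightest probe set. Cacna2d1, Cacnb4 and Cacna1d, which encode a surface subunit, an intracellular subunit and a pore of calcium channels, rose by 2.61, 1.78 and 1.69 on the log2 scale in the Sox10 LacZ/+ line, and the kainate receptor gene Grik2 and the AMPA receptor gene Gria4 rose by 1.68 and 1.58. These were the 5 channel genes that passed with a difference of at least 2-fold, and 0 passed with a fall of that size. A second, dimmer probe set of the potassium channel gene Kcna6 differed by −2.75 and is described with that gene. The test was limma's moderated test with Benjamini-Hochberg adjustment over all genes, and a gene passed at an adjusted p below 0.05. Smaller falls were found for potassium channel genes, of which 4 passed as lower and 1 as higher.

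In all, 14 of the 142 genes passed (9.86%), against 13.4% of all genes. Of these, 8 rose (5.63%, against 7.46% of all genes) and 6 fell (4.23%, against 5.92%). Rises of at least 2-fold made up 3.52% of the channel genes, against 1.94% of all genes, and falls of at least 2-fold were found for 1.59% of all genes. For 36 channel genes (25.4%) the Sox10 LacZ/+ arrays lay wholly above or wholly below the wild-type arrays, against 31.6% of all genes. The shares that passed in either direction, that rose and that fell were thus below those of all genes, and the share with a rise of at least 2-fold, 5 genes, was above it. Their median difference was −0.03, beside 0.001 over all genes, and 84 of 142 differences were negative, against 11008 of 22180.

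Many channel genes gave a dim signal. The mean over the 6 arrays was under the 40th percentile of the probe set means (5.20 on the log2 scale) for 53 of the 142, and 45 were below it in both lines. Among the 89 brighter channel genes 11 passed (12.4%), against 18.7% of all brighter genes, and among the 53 dimmer ones 3 passed (5.66%), against 3.01% of dimmer genes.

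**Figure D1:**
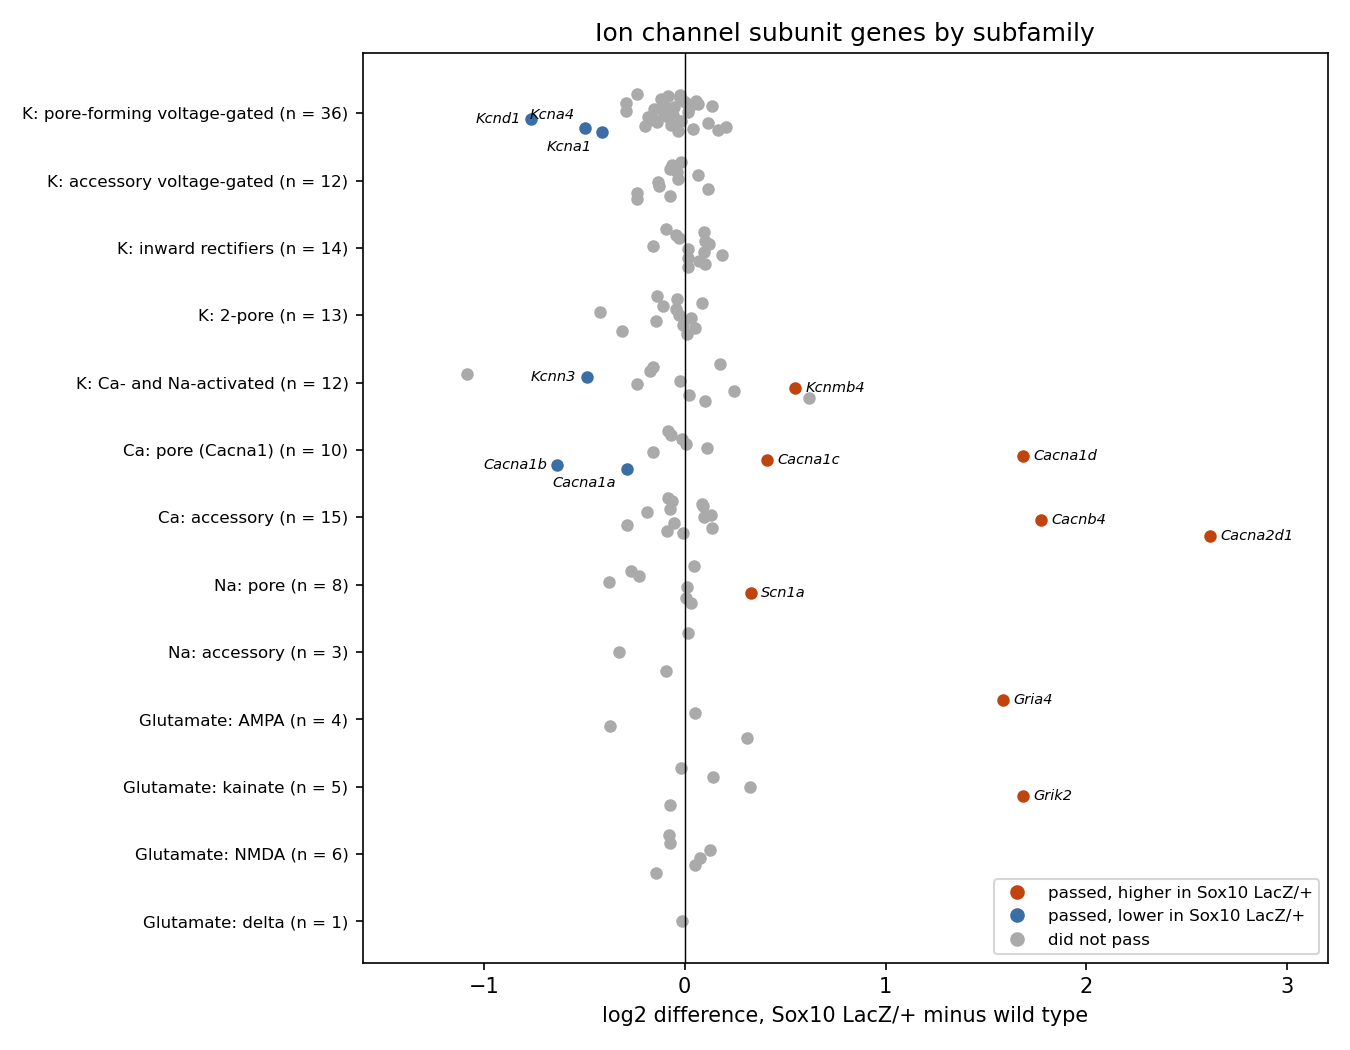
Log2 difference (Sox10 LacZ/+ minus wild type) of each channel subunit gene, 1 point per gene, grouped by subfamily; coloured points passed limma's test and are named. The points lie close to 0 in most subfamilies, and the 5 rises of at least 2-fold belong to calcium channel, AMPA receptor and kainate receptor genes.

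Calcium channel genes are taken first, beginning with the accessory subunits. Of 25, 4 rose, 2 fell and 19 did not pass (24.0% passed, against 13.4% of all genes). Cacna2d1 (Entrez 12293; chromosome 5) encodes the alpha2delta subunit that carries calcium channels to the cell surface and binds gabapentin. Its log2 signal was 7.12, 7.09 and 7.06 on the Sox10 LacZ/+ arrays, against 4.30, 4.62 and 4.51 on the wild-type arrays. The line means were 7.09 ± 0.03 and 4.48 ± 0.16 (SD, n = 3 each), a log2 difference of 2.61 (SE 0.10, adjusted p 1.1e-06 by limma), or 6.12-fold. The wild-type arrays were all below the 40th percentile and the Sox10 LacZ/+ arrays all above it.

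Cacnb4 encodes a beta subunit, which sits on the cytoplasmic side of the pore and is expressed mainly in brain. Its signal was 7.16, 7.49 and 7.44 on the Sox10 LacZ/+ arrays, against 5.36, 5.69 and 5.71 in the wild type, with no overlap between lines. The difference was 1.78 (SE 0.13, adjusted p 5.55e-05 by limma), or 3.42-fold. Cacnb4 was also measured by a dimmer second probe set, whose means were 7.02 ± 0.07 in the Sox10 LacZ/+ line and 5.29 ± 0.23 in the wild type (SD, n = 3 each), a difference of 1.73, so both probe sets showed the same direction and nearly the same size.

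Of the 15 accessory calcium channel genes these 2 rose and 13 did not pass (13.3% passed). The gamma subunit genes (Cacng), some of which encode partners of AMPA receptors, numbered 8, and 0 of them passed by limma, with 0 at an unadjusted p below 0.05 and differences of −0.19 to 0.13. Cacnb1, the beta subunit gene best known from skeletal muscle, differed by −0.29 (adjusted p 0.0597, and 0.0208 when wild-type replicate 2 was left out; range over the alternatives 0.0165 to 0.197). The median difference of the accessory genes was −0.01.

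Among the 10 pore genes, 2 rose, 2 fell and 6 did not pass (40% passed, against 13.4% of all genes). Cacna1d encodes an L-type pore that opens at comparatively negative potentials and is used by pacemaker and endocrine cells. Its signal was 6.46, 6.56 and 6.47 on the Sox10 LacZ/+ arrays, against 4.99, 4.71 and 4.74 in the wild type. The difference was 1.69 (SE 0.09, adjusted p 1.16e-05 by limma), or 3.22-fold, and all wild-type arrays lay below the 40th percentile.

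Cacna1c, the L-type pore gene of heart and smooth muscle, moved the same way on a smaller scale. Its signal was 5.61, 5.57 and 5.43 in the Sox10 LacZ/+ line, against 5.02, 5.29 and 5.07 in the wild type, a difference of 0.41 (adjusted p 0.0273). The other pore genes that passed fell: Cacna1b, the N-type pore gene of nerve terminals, had 5.78, 5.74 and 5.45 in the Sox10 LacZ/+ line and 6.41, 6.27 and 6.19 in the wild type, a difference of −0.63 (SE 0.11, adjusted p 0.00683). Cacna1a, the P/Q-type pore gene of nerve terminals, singled out here once its value was known, differed by −0.29 (adjusted p 0.0423). Both pore genes that rose are of the L-type and both that fell are of the nerve-terminal types, while the L-type genes Cacna1f and Cacna1s did not pass.

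The differences of Cacna1c and Cacna1a stayed at 0.36 to 0.49 and at −0.33 to −0.25 when arrays were left out in turn, but most of those fits did not pass. Cacna1c kept its call only without wild-type replicate 2 (highest adjusted p 0.114; range over the alternatives 0.0053 to 0.114), and Cacna1a only without wild-type replicate 3 (highest 0.161; range 0.026 to 0.161). Cacna1c lies on chromosome 6, where 20.6% of genes were higher and 2.91% lower in the Sox10 LacZ/+ line, against 7.46% and 5.92% of all genes, and the median difference of that chromosome was 0.08. The part of this shift in the value of Cacna1c was not tested.

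The start sites of calcium channel genes that rose are shown because SOX proteins bind short sequences rich in A and T, so that any such letters before a start site can be seen. RefSeq promoters (build GRCm38.p6, 300 bases each) were available for 107 of the 142 genes and for 11 of the 14 that passed, with 16 start sites among them. Both strands were searched for ACAAAG and AACAAT, core letters of SOX binding sites, and for CATGTG and CACGTG, E-box forms bound by MITF, the main melanocyte transcription factor. The table lists 3 start sites each for Cacnb4 and Cacna1c and 2 for Cacna1d. For each of these the one shown was picked because it holds a match before the start; Cacna1d's other site and 1 other site each of Cacnb4 and Cacna1c hold no match. Below are the 250 bases before a start site, with any match in capitals: Cacna2d1 (chr5:15934441-15934690, plus strand), which has no match, Cacnb4 (chr2:52558612-52558861, minus strand), with ACAAAG beginning 213 bases before the start, Cacna1d (chr14:30491157-30491406, minus strand), with AACAAT on the other strand 211 bases before it, Cacna1c (chr6:119196410-119196659, minus strand), with ACAAAG 194 bases before it, and the potassium channel gene Kcnmb4 (chr10:116473524-116473773, minus strand), with ACAAAG on the other strand 143 bases before it.
Cacna2d1: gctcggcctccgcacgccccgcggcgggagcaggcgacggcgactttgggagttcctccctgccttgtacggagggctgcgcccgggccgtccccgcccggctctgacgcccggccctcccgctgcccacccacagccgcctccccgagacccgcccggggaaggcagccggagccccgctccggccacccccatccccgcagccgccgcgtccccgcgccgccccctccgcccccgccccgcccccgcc
Cacnb4: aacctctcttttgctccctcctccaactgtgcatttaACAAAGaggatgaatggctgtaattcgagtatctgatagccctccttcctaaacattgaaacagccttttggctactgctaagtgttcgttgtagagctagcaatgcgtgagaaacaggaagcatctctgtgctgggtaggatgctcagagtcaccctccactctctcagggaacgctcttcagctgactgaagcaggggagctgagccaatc
Cacna1d: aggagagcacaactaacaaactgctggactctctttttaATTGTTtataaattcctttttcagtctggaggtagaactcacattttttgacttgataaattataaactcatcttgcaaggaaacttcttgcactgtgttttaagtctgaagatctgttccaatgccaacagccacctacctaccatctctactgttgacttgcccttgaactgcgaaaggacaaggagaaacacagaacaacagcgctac
Cacna1c: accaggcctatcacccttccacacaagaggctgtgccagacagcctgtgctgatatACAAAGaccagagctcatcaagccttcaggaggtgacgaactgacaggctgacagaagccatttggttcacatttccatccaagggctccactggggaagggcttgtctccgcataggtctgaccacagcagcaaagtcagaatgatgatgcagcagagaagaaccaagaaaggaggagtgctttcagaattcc
Kcnmb4: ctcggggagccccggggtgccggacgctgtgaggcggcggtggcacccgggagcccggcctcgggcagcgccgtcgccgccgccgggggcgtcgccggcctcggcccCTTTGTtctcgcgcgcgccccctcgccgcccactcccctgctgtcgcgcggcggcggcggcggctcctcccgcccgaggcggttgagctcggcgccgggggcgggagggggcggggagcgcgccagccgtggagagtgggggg

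Such letters were common everywhere. ACAAAG was found in 16.8% of the 143 start sites of channel genes, against 18.7% of all 32851 in the table, and AACAAT in 6.99% against 10.7%. CATGTG was found in 4.2% against 14.2% and CACGTG in 4.9% against 7.15%. Among the 16 start sites of genes that passed, 6 held ACAAAG or AACAAT (37.5%, against 23.1% of the start sites of all channel genes and 27.0% of the table), and those 6 belonged to the 4 genes Cacnb4, Cacna1d, Cacna1c and Kcnmb4. Start sites of channel genes had a median GC content of 59.3%, against 52.7% over the table, and the part of base composition in these shares was not tested. CACGTG reads the same on both strands, and no matches in the start sites of genes that passed overlapped each other. The start site that each line uses was not measured.

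Glutamate-gated receptor genes follow. Of 16 measured, 2 rose and 14 did not pass (12.5%, against 13.4% of all genes), and the median difference was 0.05. Grik2 encodes a kainate receptor pore subunit. Its signal was 7.13, 7.27 and 7.13 on the Sox10 LacZ/+ arrays, against 5.47, 5.55 and 5.46 in the wild type, with no overlap between lines. The difference was 1.68 (SE 0.08, adjusted p 3.86e-06 by limma), or 3.21-fold. The other 4 kainate receptor genes did not pass, with differences of −0.07 to 0.33.

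Gria4 encodes an AMPA receptor subunit with fast kinetics. Its signal was 7.78, 8.001 and 7.98 on the Sox10 LacZ/+ arrays, against 6.79, 5.31 and 6.91 in the wild type. All Sox10 LacZ/+ arrays were above all wild-type arrays, but wild-type replicate 2 was 1.54 lower than the average of wild-type replicates 1 and 3. The difference was 1.58 (SE 0.38, adjusted p 0.0289 by limma) with all arrays, and 1.07 (adjusted p 0.000269) without wild-type replicate 2. When any single Sox10 LacZ/+ array was left out the difference was 1.54 to 1.66 and did not pass (highest adjusted p 0.102; range over the alternatives 0.000269 to 0.186).

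The remaining AMPA receptor genes were dim. Gria1 had 5.06, 5.22 and 5.29 in the Sox10 LacZ/+ line, against 4.86, 4.95 and 4.84 in the wild type, and a difference of 0.31 (adjusted p 0.0514; 0.0357 to 0.196 over the alternatives). Gria2, whose subunit makes AMPA receptors nearly impermeable to calcium, had 3.77, 3.83 and 3.89 in the Sox10 LacZ/+ line, against 4.42, 4.07 and 4.11 in the wild type, and a difference of −0.37 (adjusted p 0.0584; 0.0145 to 0.188). Both were named after their values were seen, their arrays did not overlap between lines, and both were below the 40th percentile on average.

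Of the 6 NMDA receptor genes measured 0 passed by limma, and 0 had an unadjusted p below 0.05. Grin2d, which encodes a regulatory subunit prominent in early development, had the lowest p of them and differed by 0.12 (adjusted p 0.414). Its dimmer second probe set gave 0.39 (adjusted p 0.0439 among all probe sets). The delta receptor gene Grid1 differed by −0.02 (adjusted p 0.939), with means of 5.23 ± 0.10 in the Sox10 LacZ/+ line and 5.24 ± 0.08 in the wild type (SD, n = 3 each).

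**Figure D2:**
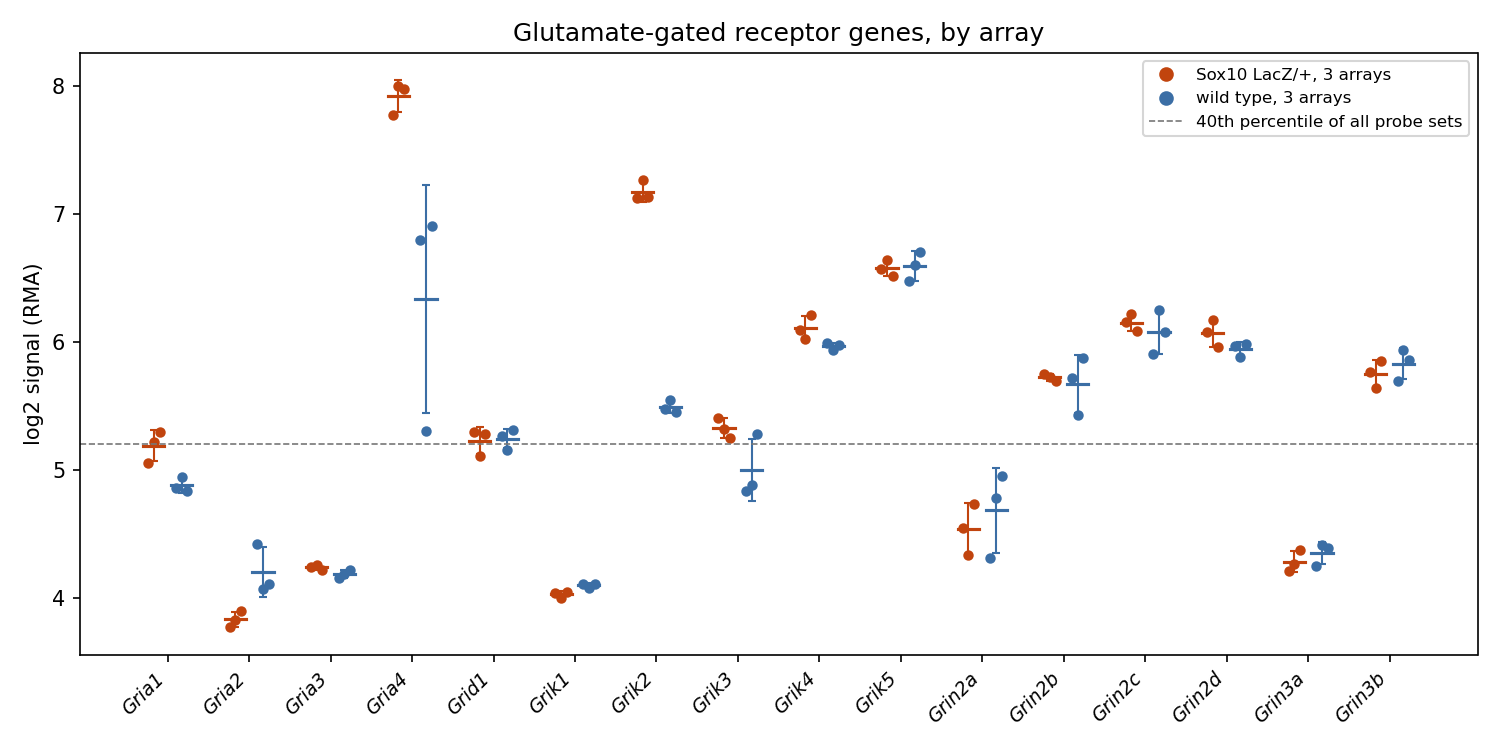
Log2 signal of the 16 glutamate receptor genes on each array, with points for the 3 Sox10 LacZ/+ arrays left of the 3 wild-type arrays, bars for the mean and SD, and a dashed line at the 40th percentile of all probe sets (5.20). Grik2 and Gria4 separate by line, and the wild-type bar of Gria4 is long because 1 array lies at 5.31; levels are to be compared within a gene, not between genes.

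Potassium channel genes made up most of the group and had the lowest share that passed of the 4 channel classes. Of 87, 1 rose, 4 fell and 82 did not pass (5.75% passed, against 13.4% of all genes), and 0 passed with a difference of 2-fold or more. The median difference was −0.04. Without wild-type replicate 1, or without Sox10 LacZ/+ replicate 1 or 2, 2 of them passed.

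Of the 36 pore-forming voltage-gated genes 0 rose, 3 fell and 33 did not pass (8.33% passed, against 13.4% of all genes), and 18 were dim. Of the 36 differences 27 were negative (median −0.06), against 84 of 142 for the channel genes and 11008 of 22180 for all genes. The share of negative differences was not tested. Kcnd1 encodes a pore of the fast A-type current. Its signal was 6.21, 5.95 and 5.85 on the Sox10 LacZ/+ arrays, against 6.86, 6.63 and 6.81 in the wild type, a difference of −0.76 (SE 0.11, adjusted p 0.00305 by limma). Kcnd1 lies on the X chromosome, and the lines differed in Xist, the RNA of the inactive X, which had 11.06 ± 0.04 in the Sox10 LacZ/+ line and 4.81 ± 0.07 in the wild type (SD, n = 3 each). Of 899 genes on X, 6.56% were lower in the Sox10 LacZ/+ line, against 5.92% of all genes, and the part of a sex difference in the value of Kcnd1 was not tested.

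Kcna4 and Kcna1 encode pores of the Shaker family, the first with rapid inactivation and the second sustained. Kcna4 had 9.74, 9.79 and 9.84 in the Sox10 LacZ/+ line, against 10.40, 10.03 and 10.42 in the wild type, a difference of −0.50 (SE 0.11, adjusted p 0.0240 by limma). Kcna1 had 4.80, 4.78 and 4.9999 in the Sox10 LacZ/+ line, against 5.36, 5.10 and 5.35 in the wild type, a difference of −0.41 (adjusted p 0.0348). Kcna1 was below the 40th percentile on average. For Kcna4 and Kcna1 alike, wild-type replicate 2 was the lowest of the wild-type arrays. With arrays left out in turn the difference was −0.62 to −0.43 for Kcna4 and −0.50 to −0.36 for Kcna1. Kcna4 kept its call only without that array (highest adjusted p 0.0956 with another array left out; range over the alternatives 0.000884 to 0.122) and Kcna1 only without it or without Sox10 LacZ/+ replicate 3 (highest 0.135; range 0.00807 to 0.135).

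Another Shaker gene, Kcna6, named after its values were seen, depended on the probe set. The brighter probe set, used here by rule, gave 6.85, 7.02 and 6.75 on the Sox10 LacZ/+ arrays, against 6.997, 7.17 and 7.05 in the wild type, a difference of −0.20 (adjusted p 0.251). The other gave 5.61, 4.81 and 5.76 on the Sox10 LacZ/+ arrays, against 8.33, 7.80 and 8.29 in the wild type, a difference of −2.75 (SE 0.25, adjusted p 0.000235 when every probe set was tested). That probe set was the brighter one in the wild type and the dimmer one over all 6 arrays. The stretch of transcript that each probe set reads was not looked up here, so the level of Kcna6 is uncertain.

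Accessory subunits of these channels showed little. Of 12 genes for cytoplasmic beta subunits (Kcnab), single-span subunits (Kcne) and calcium-sensing partners of A-type channels (Kcnip), 0 passed by limma and 0 had an unadjusted p below 0.05. Kcnab1 had the lowest p and differed by −0.24 (adjusted p 0.277). The 4 Kcnip genes, whose proteins bind the pore encoded by Kcnd1 and its relatives, differed by −0.07 to −0.02.

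Inward rectifiers (Kcnj), which hold the resting potential, numbered 14, and 0 passed by limma, with 0 at an unadjusted p below 0.05. Kcnj2 had the lowest p among them and differed by −0.16 (95% confidence interval −0.36 to 0.04, adjusted p 0.316). The 13 genes of 2-pore channels (Kcnk), which carry background potassium current, included 0 that passed by limma and 1 at an unadjusted p below 0.05. That gene was Kcnk2, whose channel responds to stretch and lipids. It had 5.75, 5.62 and 5.80 in the Sox10 LacZ/+ line, against 6.23, 6.31 and 5.90 in the wild type, a difference of −0.42 (adjusted p 0.0531; 0.0101 to 0.185 over the alternatives).

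The remaining potassium channel genes that passed encode calcium- and sodium-activated channels or their accessory subunits. Of 12 such genes 1 rose, 1 fell and 10 did not pass (16.7% passed, near the 13.4% of all genes). Kcnmb4, an accessory subunit gene of the large-conductance (BK) channel, had 7.79, 7.86 and 7.99 in the Sox10 LacZ/+ line, against 7.34, 7.32 and 7.33 in the wild type, a difference of 0.55 (SE 0.08, adjusted p 0.00244 by limma). Its dimmer second probe set gave 0.12 (adjusted p 0.712), and with the mean of both the difference was 0.34 (adjusted p 0.0694). All 4 Kcnmb genes had positive differences, of 0.02 to 0.62, against 11172 of 22180 over all genes, and 1 passed (25.0%, against 13.4% of all genes). The largest was that of Kcnmb1, named after its value was seen, which did not pass (adjusted p 0.0683 by limma; 0.00555 to 0.249 over the alternatives). The shared sign was not tested.

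Kcnma1, the pore gene of the BK channel, was named after its values were seen. The brighter probe set gave 5.52, 5.41 and 5.48 on the Sox10 LacZ/+ arrays, against 5.35, 5.15 and 5.60 in the wild type, which overlap. The other gave 6.06, 5.74 and 5.75 on the Sox10 LacZ/+ arrays, against 4.84, 4.995 and 4.80 in the wild type, a difference of 0.97 (SE 0.11, adjusted p 0.000699 when every probe set was tested), so the result for Kcnma1 depends on the probe set.

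The small- and intermediate-conductance channel genes (Kcnn) had 4 negative differences of 4, against 11008 of 22180 over all genes. Of the 4, 1 passed (25.0%, against 13.4% of all genes), and the shared sign was not tested. Kcnn3 had 5.01, 4.70 and 5.12 in the Sox10 LacZ/+ line, against 5.42, 5.54 and 5.33 in the wild type, a difference of −0.49 (adjusted p 0.0318 by limma). It was below the 40th percentile on average. With arrays left out in turn its difference was −0.58 to −0.37, and it kept its call only without Sox10 LacZ/+ replicate 3 (highest adjusted p 0.0924; range over the alternatives 0.0303 to 0.145). Kcnn4, the intermediate-conductance gene, was the 1 channel gene with a difference past 2-fold that did not pass. Its signal was 6.19, 5.85 and 5.69 in the Sox10 LacZ/+ line, against 6.70, 7.80 and 6.47 in the wild type, a difference of −1.08 (SE 0.32, adjusted p 0.0635). The high array was wild-type replicate 2, without which the difference was −0.68 (adjusted p 0.0213; 0.0213 to 0.259 over the alternatives).

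Sodium channel genes were mostly dim, with 9 of 11 below the 40th percentile. Of the 11, 1 passed (9.09%, against 13.4% of all genes). Scn1a, a sodium pore gene of central neurons, passed as higher, with 3.80, 3.96 and 3.81 in the Sox10 LacZ/+ line, against 3.53, 3.48 and 3.57 in the wild type, a difference of 0.33 (adjusted p 0.0273 by limma). Every one of these values is far below the 40th percentile, at a level where 3.01% of genes passed. With arrays left out in turn the difference was 0.28 to 0.36, and it did not pass without wild-type replicate 1 or any Sox10 LacZ/+ array (highest adjusted p 0.113; range over the alternatives 0.0223 to 0.113). The other 10 sodium channel genes did not pass. Among them Scn3a, named after its value was seen, differed by −0.38 (adjusted p 0.232, and 0.00559 when wild-type replicate 1 was left out; range over the alternatives 0.00559 to 0.459). Scn3b, a beta subunit gene, had the lowest p of the 3 accessory genes, with a difference of −0.32 (adjusted p 0.406, and 0.0126 when wild-type replicate 2 was left out; range over the alternatives 0.0126 to 0.749).

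The 3 genes that matched by symbol without encoding a subunit did not pass. Kcnq1ot1, an imprinted RNA, differed by −0.15 (adjusted p 0.291), Kcnd3os by −0.23 and Grid2ip by 0.11 (adjusted p 0.578).

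**Figure D3:**
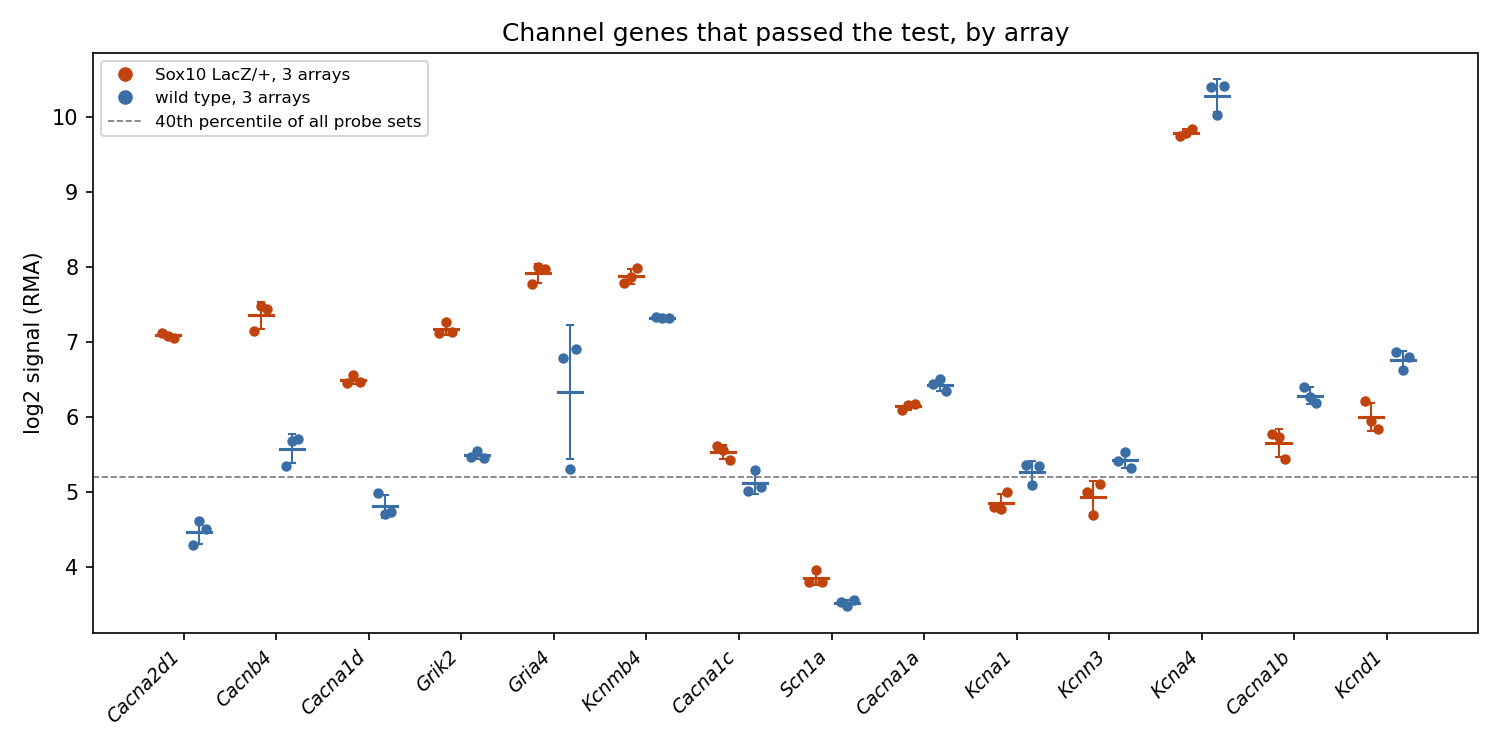
Log2 signal on each array of the 14 channel genes that passed limma's test, ordered by their difference, with the 3 Sox10 LacZ/+ arrays left of the 3 wild-type arrays, bars for the mean and SD and a dashed line at the 40th percentile (5.20). The lines do not overlap in any of the 14, the rises stand at the left with Cacna2d1 first, and Scn1a lies below the dashed line in both lines.

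With 1 array removed at a time, the calls with larger differences were kept and those with smaller ones were lost, except that Gria4 (1.58) lost its call. The smallest difference that kept its call was 0.55 (Kcnmb4). Apart from Gria4, the largest that lost it was −0.50 (Kcna4). Of the 14 genes that passed, 7 passed with every single array left out: Cacna2d1, Cacnb4, Cacna1d, Grik2 and Kcnmb4, which rose, and Cacna1b and Kcnd1, which fell. The other 7, Gria4 among them, lost their call in at least 1 such fit, with differences that kept their sign. The number of channel genes that passed lay between 7 and 20, with 7 without Sox10 LacZ/+ replicate 1 or 2, 9 without Sox10 LacZ/+ replicate 3 or wild-type replicate 1, and 20 without wild-type replicate 2. With 3 arrays against 3 there are 20 regroupings, so an exact permutation test (2-sided) of a single gene cannot go below p 0.1, and it gave that value for each gene that passed except Cacna1a, which was not tested this way.

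**Figure D4:**
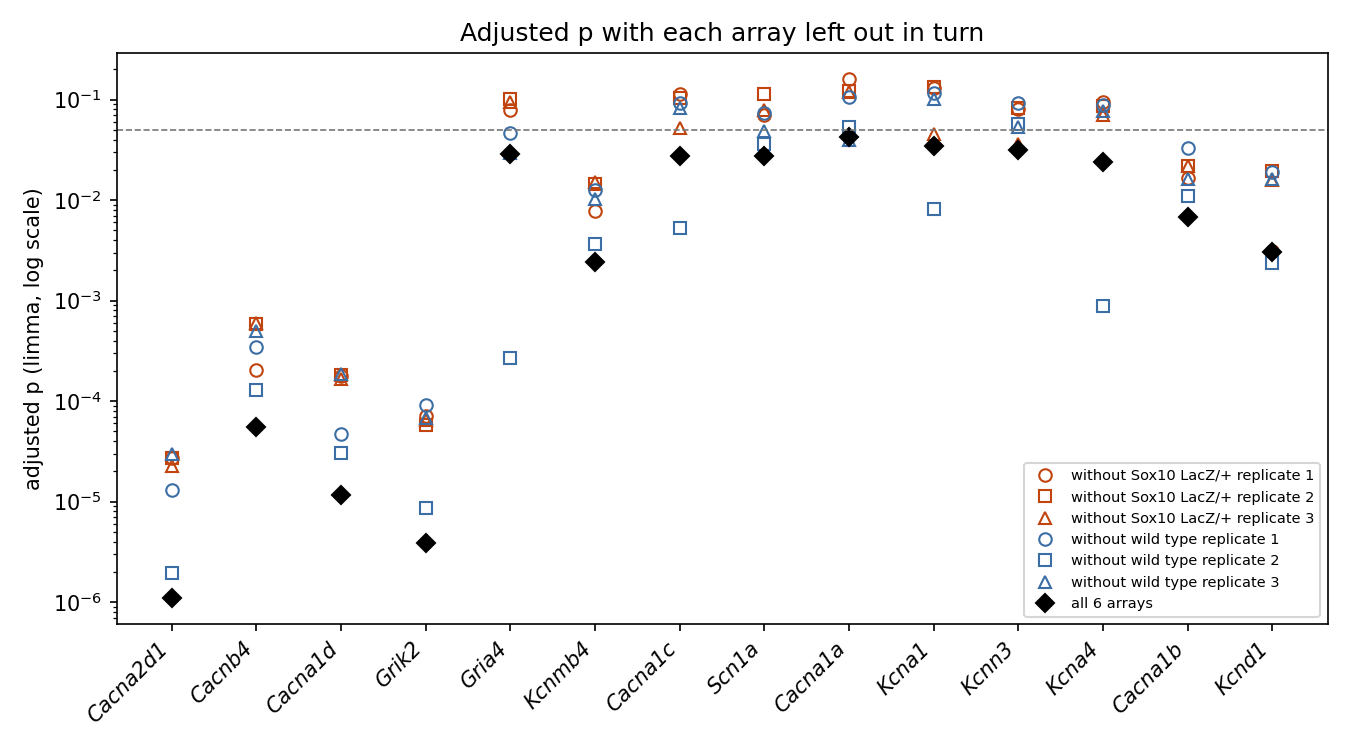
Adjusted p of limma (log scale) for the 14 channel genes that passed, with all 6 arrays (filled diamonds) and with each array left out in turn (open symbols); the dashed line marks 0.05. All symbols of Cacna2d1, Cacnb4, Cacna1d, Grik2, Kcnmb4, Cacna1b and Kcnd1 lie below the line, and those of the other 7 genes fall on both sides of it.

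Partners of these channels outside the symbol rule were measured too. Of 22 accessory proteins 0 rose, 2 fell and 20 did not pass (9.09% passed, against 13.4% of all genes). Fgf13, whose protein binds voltage-gated sodium channels, had 5.30, 5.95 and 5.66 in the Sox10 LacZ/+ line, against 7.26, 7.54 and 7.64 in the wild type, a difference of −1.84 (SE 0.17, adjusted p 0.000228 by limma). Neto2, an accessory subunit gene of kainate receptors, had 9.66, 9.78 and 9.80 in the Sox10 LacZ/+ line, against 10.20, 10.03 and 10.29 in the wild type, a difference of −0.43 (adjusted p 0.0185; range over the alternatives 0.00453 to 0.0854), so it fell where the pore gene Grik2 rose. With arrays left out in turn the difference of Neto2 was −0.50 to −0.37, and it kept its call only without wild-type replicate 2.

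Among 34 other ion channel genes 2 rose, 4 fell and 28 did not pass (17.6% passed, against 13.4% of all genes). Hvcn1, a voltage-gated proton channel gene, rose by 1.17 (SE 0.13, adjusted p 0.000737). Ano1, a calcium-activated chloride channel gene, differed by −1.88 (SE 0.12, adjusted p 3.1e-05), and Clcn5, an endosomal chloride-proton exchanger gene, by −0.71 (adjusted p 0.000526). Fgf13 and Clcn5 lie on the X chromosome, like Kcnd1, and the part of a sex difference in their values was not tested. Of 20 scaffold genes 1 rose, 2 fell and 17 did not pass (15.0% passed, near the 13.4% of all genes). Ank2, the membrane anchor ankyrin-B, differed by −0.96 (adjusted p 0.00581), Pick1 by −0.65 (adjusted p 0.0437; range over the alternatives 0.000207 to 0.2) and Grip1 by 0.40 (adjusted p 0.0166; range 0.011 to 0.0778). Pick1 and Grip1 proteins bind AMPA receptors. With arrays left out in turn, Pick1 (−0.87 to −0.53) kept its call only without wild-type replicate 2, and Grip1 (0.35 to 0.45) lost it without Sox10 LacZ/+ replicate 1 or 2.

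Metabotropic glutamate receptors, which act through G proteins, and the genes of glutamate supply and uptake included 0 that passed. Of 7 metabotropic receptor genes 0 passed by limma, with 1 at an unadjusted p below 0.05, and of 11 genes of glutamate supply and uptake 0 passed, with 2 at an unadjusted p below 0.05. Their median differences were 0.12 and −0.02.

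Cell type markers give the setting of these values. All 8 melanocyte markers lay above the 40th percentile, and 2 rose, 2 fell and 4 did not pass. The share that passed was above the 13.4% of all genes. Trpm1 (1.14) and Mitf (0.67) rose, and Tyr (−2.10) and Dct (−0.68) fell. The summed linear signal of all 8 was 31773 to 32315 in the Sox10 LacZ/+ line and 32853 to 37745 in the wild type. This sum follows bright genes such as Tyrp1 more than Tyr. Log2 means in the Sox10 LacZ/+ line and the wild type were 12.89 and 12.95 for Tyrp1, and 8.65 and 10.75 for Tyr. Of 10 neuronal markers Map2 rose (1.58, adjusted p 0.000302) and 9 did not pass, with a summed signal of 1138 to 1303 in the Sox10 LacZ/+ line and 840 to 1264 in the wild type. Snap25, Nefl, Nefm and Elavl4 were below the 40th percentile on average, and Tubb3, Rbfox3, Syn1, Stmn2, Syt1 and Map2 were above it.

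Some markers of mesenchymal cells rose in the Sox10 LacZ/+ line, and others did not pass, with differences in both directions. Of the 8 smooth muscle markers, Acta2 (5.34), Tagln (0.94) and Cnn1 (0.44) rose (37.5% passed, against 13.4% of all genes). The other 5 did not pass, and of these Myh11 (−0.06) and Smtn (−0.18) had negative differences. The summed linear signal of all 8 was 6210 to 6555 in the Sox10 LacZ/+ line, against 832 to 867 in the wild type. Of this Acta2 alone gave 5460 to 5776 and 120 to 163. Of the 8 fibroblast markers, Dcn (5.92), Pdgfrb (4.08), Fbln1 (3.18) and Col1a2 (1.24) rose and the other 4 did not pass, with a summed signal of 5283 to 5490 in the Sox10 LacZ/+ line, against 654 to 695 in the wild type. Lum and Pdgfra were the 2 of these 8 below the 40th percentile on average. Of 8 striated muscle markers Tnnt2 rose and 7 did not pass (1624 to 1649 in the Sox10 LacZ/+ line, against 1124 to 1184). Of 6 glial markers Gjc3 (−5.93), S100b (−2.70) and Pmp22 (−0.42) fell, and Mbp, Mag and Gfap did not pass. The summed signal of these 6 was 1589 to 1654 in the Sox10 LacZ/+ line, against 5151 to 5888. Gjc3 had the highest wild-type signal of the 6, with a log2 mean of 11.70, against 5.77 in the Sox10 LacZ/+ line. The part of these shifts in the rise of the calcium channel and glutamate receptor genes was not tested, and in bulk RNA fewer cells of a type and less RNA per cell cannot be told apart.

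Sox10 itself had 9.73 ± 0.05 in the Sox10 LacZ/+ line and 9.91 ± 0.10 in the wild type (SD, n = 3 each), a difference of −0.18 that did not pass (adjusted p 0.213 by limma), and Cdkn2a, disrupted in every sample, differed by −0.09 (adjusted p 0.61). Probe positions within these genes were not used here, so neither value checks the disrupted alleles. Wild-type replicate 2 stood apart from its line: 2 channel genes, Gria4 and Kcnn4, and 261 genes in all lay 2-fold or more away from its sister arrays' mean, and for wild-type replicates 1 and 3 the same count was 22 and 54 genes.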

How the data were processed

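The authors deposited log2 values, 1 for each probe set and array. The submitters' processing notes name RMA, a method of background correction, normalization and probe summary, and Partek, with no version or setting. Array medians lay between 5.72 and 5.78, and arrays report signal over background, so the number of arrays limits precision. Of 41345 probe sets, 23521 carried 1 symbol, 1814 several and 16010 none in the platform annotation; all 142 channel genes matched RefSeq (GRCm38.p6) by Entrez number. Where a gene had several probe sets (13 channel genes), the brightest by its mean over 6 arrays stood for it. The contrast was fitted with lmFit and eBayes of limma 3.58.1 (R 4.3.3; 2-sided; differences are Sox10 LacZ/+ minus wild type), with Benjamini-Hochberg adjustment over all 22180 genes and no filter; the fit was tested on simulated data. Genes were named if they passed at 2-fold or more, were among the 3 largest passing differences of a subfamily or list, or had the lowest p of a subfamily with none. The channel genes and lists were chosen with earlier results of these data known, and no list was tested as a set. The labels do not say what same-numbered arrays share, and the main fit did not pair them. Deviations of same-numbered arrays correlated at 0.007, 0.016 and −0.004, which cannot show whether they had a common source.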

Additional observations from a re-analysis of the deposited data

How the results depend on the processing

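The count of 14 channel genes (8 higher, 6 lower) was 13 to 17 with quantile normalization, median centring, the mean of probe sets, every probe set, dim genes left out, and eBayes with trend or robust. With array weights it was 20 (10 lower; 8 potassium, 4 glutamate). With no variance moderation, 5 channel genes passed (5 higher, 0 lower; 1 potassium, 3 calcium, 0 sodium, 1 glutamate) and 1717 of all genes, against 2967. At an adjusted p below 0.01, 7 passed (5 higher, 2 lower; 2 potassium, 0 sodium, 1 glutamate) and 1588 of all genes; at 2-fold or more, 5 passed (5 higher, 0 lower; 0 potassium, 3 calcium, 0 sodium) and 782 of all genes. Dim genes left out gave 0 sodium channel genes, by construction, since Scn1a is dim. Kcna1 and Kcnn3 are dim as well and dropped out in the same way, while Cacnb1 and Kcnk2 were added. With the replicate number as a block (the replicate block), 12 channel genes passed, 11 of them among the 14, and 0 sodium channel genes; the numbers share no stated source. With each array left out in turn, 1768 to 4222 of all genes passed, 7 to 20 channel genes, 5 to 9 higher, 2 to 11 lower, 2 to 6 potassium, 4 to 6 calcium, 0 to 3 sodium and 1 to 4 glutamate. The difference of Grid1 (−0.058 to 0.045) changed sign without Sox10 LacZ/+ replicate 2 (0.045) and wild-type replicate 3 (0.017), and that of Kcnma1 (−0.0078 to 0.22) without wild-type replicate 2. Signal over background limits the dim genes, and the cause of these changes was not tested.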

Other observations

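The choice of probe set changed several calls. With every probe set tested, Kcna6, Kcnma1 and Grin2d were added to the 14 that passed; with probe sets averaged per gene, Kcna6 (−1.47, adjusted p 6.45e-05) and Kcnma1 (0.54, adjusted p 0.00434) were added, and Kcna4 (−0.33, adjusted p 0.0769) and Kcnmb4 (0.34, adjusted p 0.0694) did not pass. The second Kcna6 probe set held the largest difference of any probe set of a channel gene with several. Its means were 5.39 ± 0.51 in the Sox10 LacZ/+ line and 8.14 ± 0.29 in the wild type (SD, n = 3 each), beside 6.87 ± 0.14 and 7.07 ± 0.09 for the one used. Both probe sets of Cacnb4 gave the same direction and size.

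Kcnk5, a 2-pore channel gene singled out after its values were seen, had 10.36, 10.34 and 10.34 on the Sox10 LacZ/+ arrays, against 10.66, 10.11 and 10.59 in the wild type. Its difference was −0.11 (adjusted p 0.714) with all arrays and −0.28 (adjusted p 0.0288) without wild-type replicate 2.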
